A study of Linum usitatissimum with 11 samples.

Results

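The 47 Genolin contig probes are the non-control probes of a flax (Linum usitatissimum) expression array whose names start with genolin, and they were chosen by that prefix alone. They are 47 of 43455 non-control probes, and the other 43408 carry gene model identifiers starting with Lus. Each contig probe has 1 spot on every array. The 47 carry the design numbers 43409 to 43455 and are scattered over the array surface, from spot row 2 to spot row 163. The deposited tables give them no gene name, description or sequence, so their identity is the contig name only.

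The RNA came from peeled inner stems of cultivar Diane plants, raised in the field and sampled while vegetative. The control group is 3 wild-type (wt) plants, and the mutant group is 6 plants of the family lbf1, which the labels describe as an EMS (chemically mutagenised) family. The series title expands lbf1 as a mutant with lignified bast fibres. Wild-type plant 3 and lbf1 plant 1 were each hybridised to 2 arrays, which gives 4 wild-type and 7 lbf1 arrays of single-colour (Cy3) RNA. The titles of lbf1 plants 5 and 6 read lbf instead of lbf1, while their genotype label is the same as that of the other mutants. The plants are separate by their titles, and the labels do not say how the mutants are related within the family. No probe is paired with a gene name, so the tissue label could not be checked against markers.

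A contig is a stretch of transcript sequence assembled from overlapping cDNA reads, and Genolin is the name of a flax cDNA sequencing resource. A gene model is instead predicted on the assembled genome. In flax the bast fibres lie outside the cambium and have cellulose-rich walls with little lignin, while the inner stem holds the xylem, whose walls are lignified. Nothing in the tables says which kind of transcript any of the 47 contigs is. The design asks which transcripts differ in level between wt and lbf1 inner stem.

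Array-wide signal differed with genotype. The upper quartile of net signal (spot mean minus local background) over all probes was 317 to 732.5 units on the wild-type arrays and 650 to 920 units on the lbf1 arrays. Both ends of the wild-type range came from wild-type plant 3, whose first array read 317 and whose second read 732.5 units. The brightest array was that of lbf1 plant 5, at 920 units. Arrays with the same barcode in the scan headers were taken as 1 slide, which gave 4 slides, and the labels name no slide. Slide 1 alone held both genotypes (wild-type plants 1 and 2 and lbf1 plant 1). Plant counts, 3 wild-type and 6 lbf1, limit the precision of every value given here.

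Signal above background divided the contigs into a group seen everywhere and a group seen almost nowhere. A probe counted as above background on an array when its net signal exceeded 2.6 SDs of the local background. By this measure 22 of 47 contigs (46.8%) were above background on all 11 arrays, beside 40.2% of all probes. There were 6 contigs (12.8%) above background on no array, beside 17.1% of all probes. Another 12 were above background on a single array. Between these extremes lay 7 contigs. They were genolin_c14606 and genolin_c8752 on 10 arrays, genolin_c31333 on 8, genolin_c33670 and genolin_c42715 on 7, genolin_c15038 on 4 and genolin_c57282 on 2. Some of their misses came with a noisy local background. On the first array of lbf1 plant 1 genolin_c14606 had a net signal of 284 units and a background SD of 241. On the second array of that plant genolin_c31333 had 196 units and a background SD of 600.

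**Figure D1:**
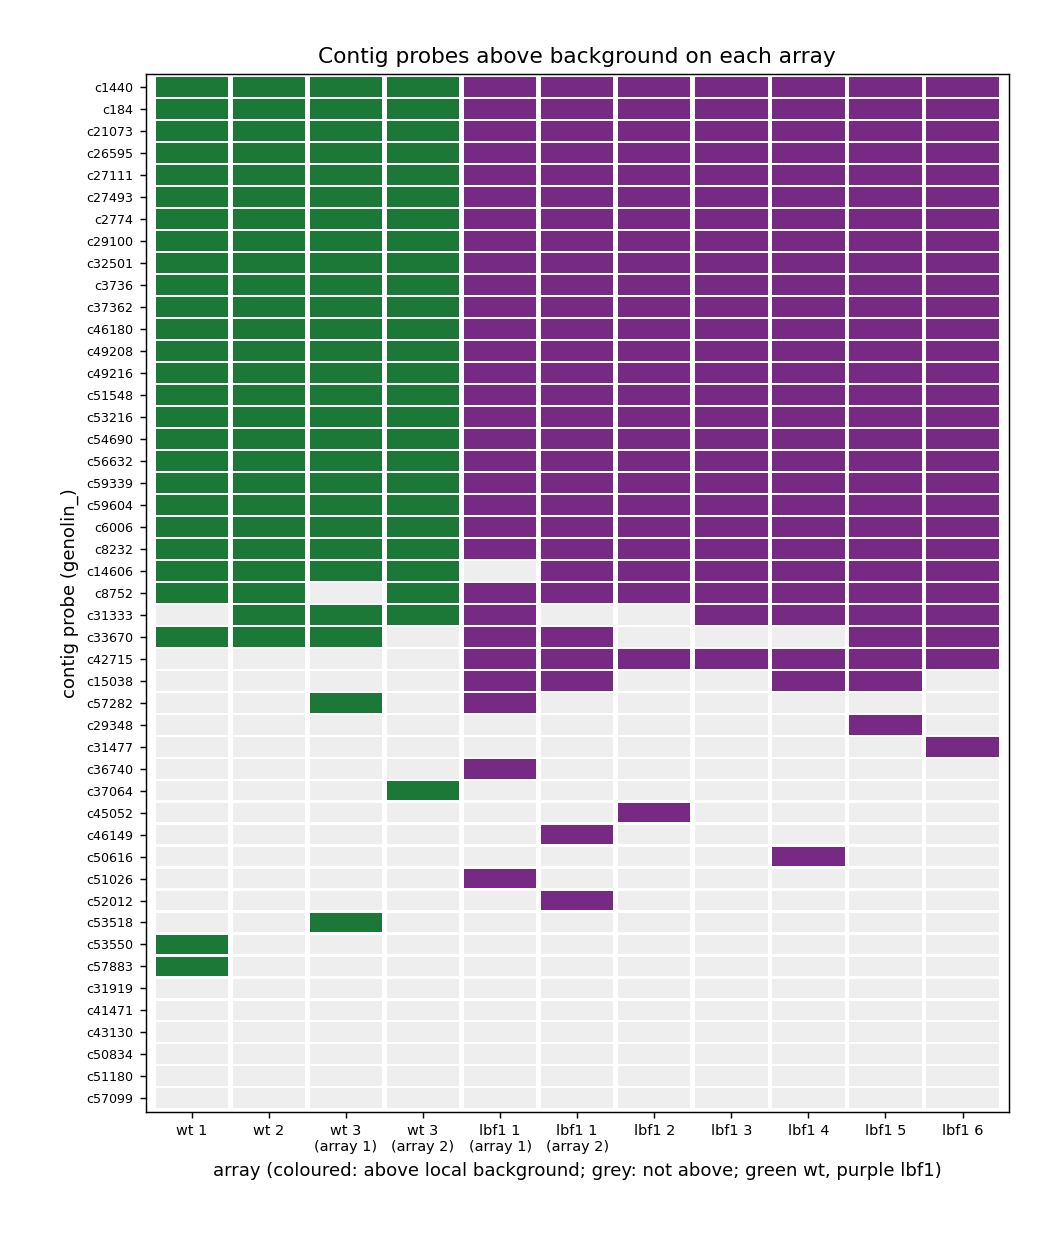
Each row is 1 of the 47 contig probes and each column 1 of the 11 arrays; a coloured cell (green wt, purple lbf1) is a spot above its local background. The 22 contigs at the top are above background on every array, and genolin_c42715 is coloured on all 7 lbf1 arrays and on no wt array.

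The number of contigs above background hardly moved between arrays. It was 26 to 27 on the 4 wild-type arrays and 26 to 30 on the 7 lbf1 arrays. Over all probes the share above background was 54.7% to 61.2% on wild-type arrays and 62.2% to 64.7% on lbf1 arrays, so these ranges did not overlap, while those of the contigs did. All 4 wild-type arrays showed 23 of the contigs, and all 7 lbf1 arrays showed 24. None was seen on every wild-type array while missing from every lbf1 array.

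The 12 contigs seen on a single array were weak there, and most of their spots were uneven. Their net signal on that array was 19 to 123 units, and GenePix had marked 11 of the 12 spots as not found. In 9 of the 12 the SD of the spot's pixels exceeded 100% of their mean. The strongest of them, genolin_c53550 on the array of wild-type plant 1, had a net signal of 123 units and a pixel SD of 774% of the mean. The spot that was found belonged to genolin_c51026 on the first array of lbf1 plant 1, with 79 units and a pixel SD of 52.2%. The other single-array contigs were genolin_c57883 in wild-type plant 1, genolin_c53518 and genolin_c37064 on 1 array each of wild-type plant 3, and genolin_c36740, genolin_c46149 and genolin_c52012 on arrays of lbf1 plant 1. They also include genolin_c45052 in lbf1 plant 2, genolin_c50616 in plant 4, genolin_c29348 in plant 5 and genolin_c31477 in plant 6. The 6 contigs above background nowhere were genolin_c31919, genolin_c41471, genolin_c43130, genolin_c50834, genolin_c51180 and genolin_c57099. On genolin_c57282, seen on 1 array of each genotype, pixel SD was 588% and 645% of the mean.

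Levels are log2 intensities after background correction with an offset of 50 units and quantile normalization, with repeat arrays of a plant averaged. On this scale a probe with no signal lies near 6. The lowest signal above background was 6.14 to 6.26 log2 on wild-type arrays and 5.98 to 6.11 log2 on lbf1 arrays. Probe brightness depends on its sequence, so levels are compared between plants and not between contigs. A probe was tested if all arrays of a plant showed it above background in at least 3 plants. Of the 47 contigs 28 were tested (59.6%, beside 65% of all probes), and none of these was saturated on any array. Of the tested contigs genolin_c15038 passed with 3 plants, the fewest allowed, all of them lbf1. Of the 19 untested contigs none had over 1 such plant. The untested contigs had a median level of 5.92 log2 and a range of 5.76 to 7.98 log2, where the highest value is the spot of genolin_c53550 described above.

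Among the 28 tested contigs, levels were mostly lower in lbf1. With limma (Benjamini-Hochberg adjusted p under 0.05 over all 28267 tested probes), 12 contigs were called different, beside 32.2% of all tested probes. Of these 12, 10 were lower in lbf1, where 15.5% of all tested probes were called lower. The other 2 were higher, where 16.7% of all tested probes were called higher. The difference had a negative sign in 22 of 28 contigs (78.6%), beside 48.3% of all tested probes. Its median was -0.98 log2 over the contigs and 0.02 log2 over all tested probes.

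The size and often the sign of these differences depended on the scaling. Scaling to spike-in control probes moved the median difference of all tested probes to 0.67 log2. That of the contigs moved to -0.33 log2, with 16 contigs negative. This scale rests on 4 control probes, whose level was 9.46 to 10.19 log2 on wild-type arrays and 9.48 to 9.76 log2 on lbf1 arrays. The first and second arrays of wild-type plant 3 read 10.19 and 9.74 log2 for them. Measured from the median of all probes, the contig median was -1 log2 after quantile normalization. It was -1.01 log2 after spike-in, median or 75th percentile scaling, which shift all probes of an array alike and so leave this value nearly fixed. It was -1.24 log2 with background subtraction and 75th percentile scaling and -1.3 log2 in the authors' deposited values. On the spike-in scale 10 contigs were called, 5 lower and 5 higher, beside 65.1% of all tested probes. Of all the probes called there 5.74% were lower and 94.3% higher, where quantile normalization gave 48.1% lower and 51.9% higher. A lower level after quantile normalization is therefore a level lower relative to the other transcripts on the array. RNA was taken from whole inner stem tissue, in which fewer cells of a type and less RNA per cell cannot be told apart.

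**Figure D2:**
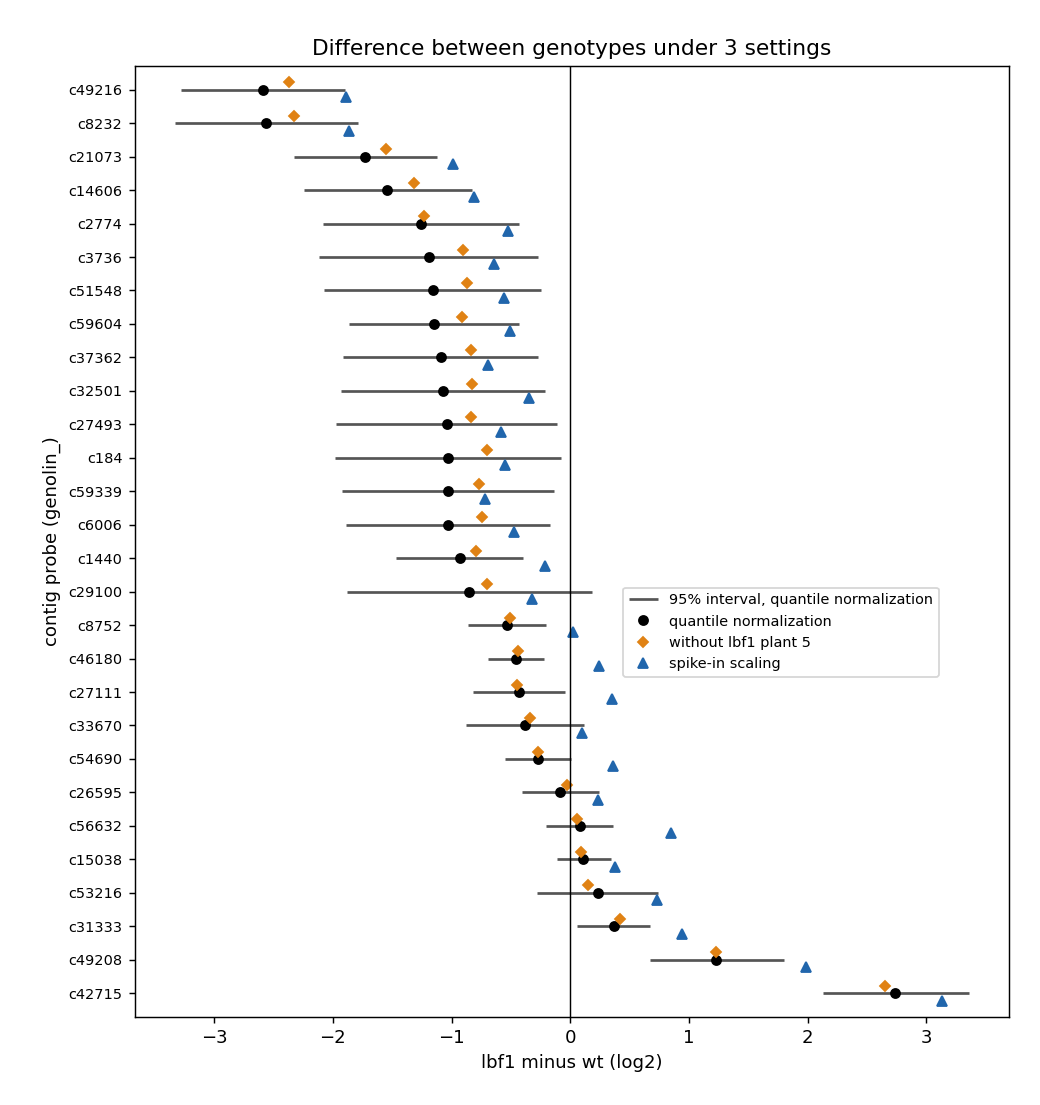
For each of the 28 tested contigs the horizontal axis gives the level in lbf1 minus wt (log2), with black points and 95% intervals from limma after quantile normalization, orange diamonds without lbf1 plant 5 and blue triangles after spike-in scaling. The 22 contigs with a negative black point lie at the top, and the triangles lie to the right of the black points for all 28; the point of genolin_c42715 rests on a wt level that was not above background.

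The largest falls were those of genolin_c49216 and genolin_c8232, whose values ran side by side. The level of genolin_c49216 was 11.16, 10.96 and 11.27 log2 in wild-type plants 1 to 3. In lbf1 it had a lowest value of 7.43, a median of 8.66 and a highest value of 9.09 log2. All mutants lay more than 1 log2 below every wild-type plant. The change was -2.59 log2 (SE 0.31, limma adjusted p of 0.000264), which is 6.03-fold lower in lbf1.

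The level of genolin_c8232 was 11.03, 10.92 and 11.21 log2 in the wild type. In lbf1 it had a lowest value of 7.38, a median of 8.65 and a highest value of 9.22 log2, again with no overlap between genotypes. It fell by 2.56 log2 (SE 0.345, limma adjusted p of 0.00052). Both calls held under 25 of 27 other settings, spike-in scaling included (-1.89 and -1.86 log2), and were lost with slide as a fixed block and with brightness as a term. Slide 1 holds a single lbf1 plant against 2 wild-type plants, and there the differences were -2.17 log2 for genolin_c49216 and -2.08 log2 for genolin_c8232. With slide as a fixed block the same estimates had limma adjusted p of 0.0652 and 0.0972. In the fit to slide 1 alone, which takes the spread from the wild-type pair, limma adjusted p was 0.0167 and 0.0147.

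Next were genolin_c21073 and genolin_c14606. The level of genolin_c21073 was 9.71, 9.86 and 10.2 log2 in the wild type. In lbf1 its lowest value was 7.34, its median 8.25 and its highest value 8.7 log2, so the genotypes did not overlap. It fell by 1.73 log2 (SE 0.269, limma adjusted p of 0.00118). For genolin_c14606 the wild type read 9.11, 9.2 and 9.63 log2. The mutants had a lowest value of 6.69, a median of 7.92 and a highest value of 8.28 log2, also with no overlap. Its change was -1.54 log2 (SE 0.316, limma adjusted p of 0.00511). Under spike-in scaling both stayed lower in lbf1, by -0.99 and -0.81 log2 (limma adjusted p of 0.00607 and 0.028).

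Smaller falls were called in genolin_c2774, genolin_c59604, genolin_c37362 and genolin_c1440. In the wild type genolin_c2774 stood at 10.41, 10.13 and 10.72 log2, and in lbf1 its lowest value was 7.86 in plant 6, with a median of 9.39 and a highest value of 9.81 log2. Its change was -1.26 log2 (SE 0.368, limma adjusted p of 0.0267), with no overlap between genotypes. The spot of lbf1 plant 5 for this contig had a pixel SD of 302% of the mean, and with the spot median in place of the mean that plant read 8.38 instead of 9.02 log2.

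The level of genolin_c59604 was 12.27, 12.24 and 12.30 log2 in the wild-type plants. The value of plant 3 averages arrays that read 12.83 and 11.76 log2, so these near-equal values hide a spread between arrays. In lbf1 the lowest value was 9.95, the median 11.29 and the highest 11.61 log2, below every wild-type plant. The difference was -1.15 log2 (SE 0.32, limma adjusted p of 0.0214). In genolin_c37362 the wild type read 14.11, 14.36 and 14.51 log2, and the mutants had a lowest value of 12, a median of 13.4 and a highest of 14.01 log2, with no overlap. The change of -1.09 log2 (SE 0.366) was close to the threshold (limma adjusted p of 0.0454). For genolin_c1440 the wild type read 10.68, 10.92 and 11.31 log2, and the mutants ran from 9.33 to 10.43 log2 with a median of 10.18. It fell by 0.93 log2 (SE 0.239, limma adjusted p of 0.0148). On the spike-in scale genolin_c37362 kept its call (-0.69 log2, limma adjusted p of 0.0482), while genolin_c2774, genolin_c59604 and genolin_c1440 did not pass (-0.52, -0.51 and -0.21 log2, with limma adjusted p of 0.156, 0.137 and 0.378).

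The remaining calls of a lower level were small and turned in sign with spike-in scaling. The level of genolin_c8752 was 7.25, 6.94 and 7.1 log2 in the wild type and 6.21 to 6.85 log2 in lbf1, a change of -0.53 log2 (SE 0.147, limma adjusted p of 0.0211). The level of genolin_c46180 was 8.04, 8.23 and 7.94 log2 in the wild type and 7.53 to 7.78 log2 in lbf1, a change of -0.46 log2 (SE 0.104, limma adjusted p of 0.0086). Plant values overlapped in neither after quantile normalization, while values of single arrays overlapped in both. The arrays of wild-type plant 3 read 7.34 and 6.87 log2 for genolin_c8752 and 8.33 and 7.54 log2 for genolin_c46180. On the first array of lbf1 plant 1 these contigs read 6.9 and 7.95 log2. After spike-in scaling the differences of genolin_c8752 and genolin_c46180 were 0.02 and 0.24 log2 (limma adjusted p of 0.939 and 0.251). The array of wild-type plant 2 and the first array of lbf1 plant 1 held uneven spots of genolin_c46180, with pixel SDs of 194% and 208% of the mean.

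**Figure D3:**
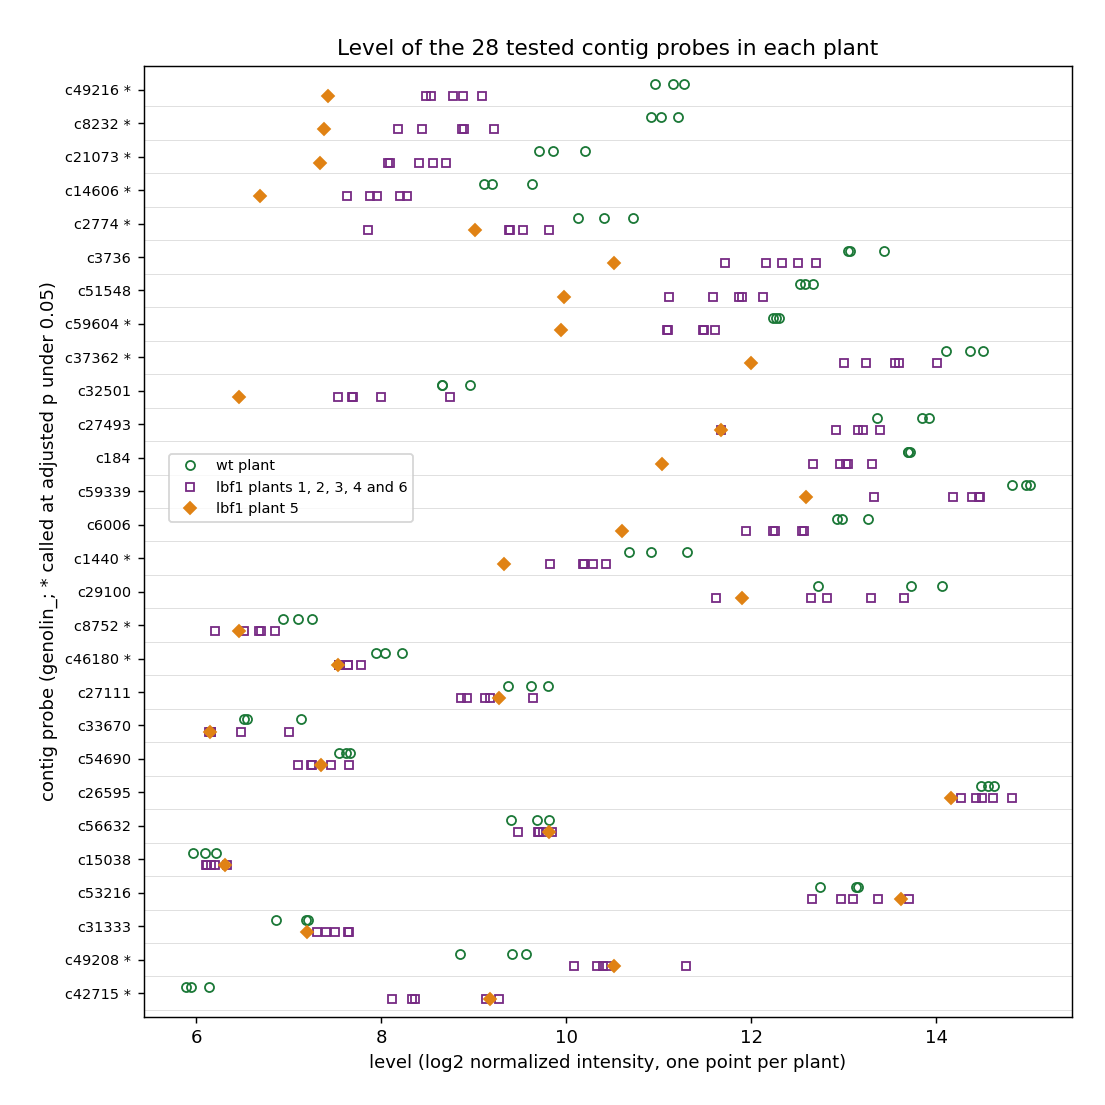
The horizontal axis is the level (log2 normalized intensity) of the 28 tested contigs, with 1 point per plant: green circles for wt, purple squares for lbf1 plants 1, 2, 3, 4 and 6, and orange diamonds for lbf1 plant 5. Contigs are ordered by the difference, an asterisk marks a call, and plant 5 is the leftmost point in most contigs of the upper part.

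Only genolin_c42715 and genolin_c49208 were called higher in lbf1, and both kept that direction under every scaling that gave them a value. The level of genolin_c42715 was 6.14, 5.95 and 5.89 log2 in the wild type, where no array showed it above background. Net signal was 5 to 11 units on the 4 wild-type arrays and 256 to 739 units on the 7 lbf1 arrays. In lbf1 the lowest level was 8.12, the median 8.75 and the highest 9.27 log2, with no overlap. The probe entered the test through its lbf1 plants alone, so its difference follows in part from that filter. Since the wild-type level is only bounded, the difference is given as at least 5.85-fold higher in lbf1. The limma adjusted p of 9.76e-05 belongs to the measured difference of 2.74 log2, which uses wild-type values not above background, and not to this bound. For this bound each wild-type array was set to the higher of the probe's own level and the lowest signal above background. The bound compares 8.73 log2 in lbf1 with 6.19 log2, where the measured wild-type mean was 5.99 log2. It was the single contig seen on all lbf1 arrays and no wild-type array, a pattern shared by 376 of all 43455 probes.

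The level of genolin_c49208 was 9.57, 9.41 and 8.85 log2 in the wild type. In lbf1 it had a lowest value of 10.08, a median of 10.42 and a highest value of 11.3 log2 in plant 1. The mutants all stood above the wild type. It rose by 1.23 log2 (SE 0.254, limma adjusted p of 0.00521), and its call held under 26 of 27 other settings. The exception was brightness as a term. Within slide 1, with its single lbf1 plant, the difference was 1.81 log2 (limma adjusted p of 0.0173, and 0.00534 with slide as a fixed block).

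The 16 tested contigs that were not called fall into those with wide spread in lbf1 and those with small differences. In genolin_c3736, genolin_c51548, genolin_c32501, genolin_c27493, genolin_c184, genolin_c59339 and genolin_c6006 the estimates lay between -1.19 and -1.03 log2, with limma adjusted p from 0.0512 to 0.0904. Their 95% intervals excluded 0 singly, the widest being that of genolin_c184, from -1.98 to -0.08 log2. In 5 of these 7 all mutants lay below all wild-type plants, and genolin_c32501 and genolin_c27493 were the exceptions. Over all 28 contigs, 15 had every lbf1 plant below every wild-type plant, beside 16.3% of all tested probes, and 2 had every lbf1 plant above, beside 18.2%.

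The level of genolin_c184 illustrates the spread. It was 13.72, 13.7 and 13.7 log2 in the wild type, and 13.05, 13.31, 13.02, 12.96, 11.04 and 12.67 log2 in lbf1 plants 1 to 6. The mutants all lay below the wild type, and plant 5 lay 1.63 log2 below the next lowest. The SD was 0.00843 log2 in the wild type (n = 3) and 0.828 log2 in lbf1 (n = 6). The value of wild-type plant 3 averages arrays that read 14.01 and 13.39 log2, so this wild-type SD hides a spread between arrays. The difference of -1.03 log2 (SE 0.425) did not pass (limma adjusted p of 0.0904).

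The same pattern held for genolin_c3736 and genolin_c51548, which have the next widest spread. The level of genolin_c3736 was 13.44, 13.07 and 13.05 log2 in the wild type, with a lowest value of 10.52, a median of 12.24 and a highest value of 12.7 log2 in lbf1. The level of genolin_c51548 was 12.67, 12.53 and 12.58 log2 in the wild type, with a lowest value of 9.98, a median of 11.73 and a highest value of 12.13 log2 in lbf1. In both every mutant lay below every wild-type plant, and plant 5 was the lowest. In genolin_c27493 the wild type read 13.85, 13.36 and 13.92 log2, and plants 2 and 5 were both at 11.67 log2, the lowest of the mutants, whose median was 13.04 and highest value 13.39 log2. The highest mutant overlapped with wild-type plant 2.

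In genolin_c32501 the overlap between genotypes rested on a single uneven spot. Its wild-type levels were 8.66, 8.66 and 8.96 log2, and lbf1 plant 3 reached 8.74 log2 with a pixel SD of 299% of the mean. With the spot median that plant read 7.76 log2, and the contig was called lower (-1.23 log2, limma adjusted p of 0.0113). The same setting called genolin_c51548 and genolin_c3736 lower too (limma adjusted p of 0.0461 and 0.0499).

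The other contigs that were not called had estimates nearer 0. The level of genolin_c29100 was 13.73, 14.06 and 12.72 log2 in the wild type, with a lowest value of 11.62, a median of 12.73 and a highest value of 13.65 log2 in lbf1. The groups overlapped, and the difference was -0.85 log2 with a 95% interval from -1.88 to 0.18 log2 (limma adjusted p of 0.189). Its repeat arrays of wild-type plant 3 read 11.49 and 13.95 log2, the farthest apart of the 28 contigs, with net signals of 1578 and 19964 units. Estimates were -0.43 log2 for genolin_c27111, -0.38 for genolin_c33670 and -0.27 for genolin_c54690 (limma adjusted p of 0.0885, 0.221 and 0.128). For genolin_c26595 the difference was -0.09 log2 with a 95% interval from -0.41 to 0.24, and for genolin_c56632 it was 0.08 log2 with an interval from -0.20 to 0.36. On the spike-in scale genolin_c56632 was called higher (0.85 log2, limma adjusted p of 0.00324).

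A positive sign without a call was also seen in genolin_c15038, genolin_c53216 and genolin_c31333, at 0.11, 0.23 and 0.37 log2 (limma adjusted p of 0.424, 0.477 and 0.0646). The first lay at the floor, with 5.97 to 6.22 log2 in the wild type and 6.11 to 6.34 log2 in lbf1. No wild-type array showed it above background. It entered the test through its lbf1 plants alone, so its difference follows in part from that filter. On the spike-in scale genolin_c53216 and genolin_c31333 were called higher (0.73 and 0.94 log2, limma adjusted p of 0.0172 and 0.00183).

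After averaging of repeat arrays, plant values of the contigs differed more within lbf1 than within the wild type. The median SD between plants was 0.547 log2 in lbf1 (n = 6) and 0.186 log2 in the wild type (n = 3) over the 28 contigs. Over all tested probes these medians were 0.222 and 0.164 log2. The SD exceeded 0.5 log2 in lbf1 for 15 of 28 contigs (53.6%), beside 11.3% of all tested probes. It was larger in lbf1 than in the wild type for 24 of 28 contigs, beside 63.4% of all tested probes. The repeat arrays averaged for wild-type plant 3 differed by a median absolute 0.674 log2 over the contigs. They differed by over 0.5 log2 in 15 of 28. For lbf1 plant 1 that median was 0.0815 log2. Averaging hides the spread between the arrays of wild-type plant 3, so the wild-type SDs do not show how far single wild-type arrays vary.

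Plant 5 stood farthest from the other mutants in many contigs. It was the lowest of the 6 mutants in 17 of 28 contigs (60.7%), beside 16% of all tested probes, and the highest in none. The median deviation of plant 5 from the mutant mean was -0.73 log2 over the contigs and 0 log2 over all tested probes. In 13 contigs (46.4%) plant 5 lay at least 1 log2 below the mean of the other 5 mutants, which held for 0.716% of all tested probes. Plants 2 to 5 shared slide 2, and median deviations of plants 2, 3 and 4 were 0.15, 0.1 and 0.05 log2. Plant 5 had a single array, so plant and array cannot be told apart there. Plant 5 was also the brightest array, as given above, and the parts of slide and brightness in its deviation were not tested.

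**Figure D4:**
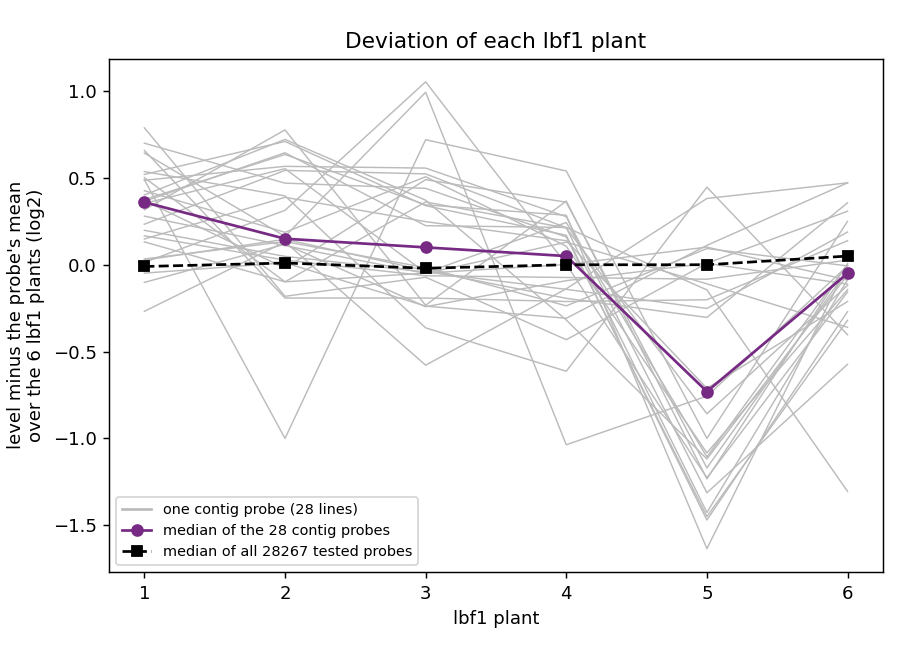
The vertical axis is the level of each contig in a lbf1 plant minus its mean over the 6 lbf1 plants (log2), with grey lines for the 28 tested contigs, purple points for their median and black squares for the median of all 28267 tested probes. The purple point of plant 5 lies at -0.73 log2, while the black squares stay within 0.05 log2 of 0.

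The 13 contigs low in plant 5 are genolin_c184, genolin_c3736, genolin_c51548, genolin_c6006, genolin_c59339, genolin_c37362, genolin_c32501, genolin_c59604, genolin_c8232, genolin_c49216, genolin_c14606, genolin_c27493 and genolin_c21073. They were gathered after their values were seen. In them plant 5 minus the mean of the other mutants was between -1.97 and -1.03 log2. All 13 also had an estimate of -1 log2 or less for lbf1 against wt, from -2.59 to -1.03 log2, and 6 of them were called. Over all tested probes 59 had both properties (0.209%), and these 13 contigs are among the 59. Plant 5 itself enters the genotype difference, so these properties are not independent.

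Leaving out plant 5 moves the estimates of these 13 contigs toward 0 by the way they were gathered, and narrows the spread between mutants. Without it their estimates lay between -2.37 and -0.70 log2, and 11 of the 13 were called. Over all 28 contigs 18 were called without plant 5, 15 lower and 3 higher, beside 28.5% of all tested probes. The call of every one of the 12 contigs first called was kept. For genolin_c184 the difference without plant 5 was -0.70 log2 (limma adjusted p of 0.00681). The other mutants ran from 12.67 to 13.31 log2, and all wild-type plants stood at 13.7 log2 or above after averaging. The second array of wild-type plant 3 alone read 13.39 log2.

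The repeat arrays of wild-type plant 3 gave a second view of the same contigs, from a single plant. Between its dim and its bright array the upper quartile of net signal rose 2.31-fold. The median net signal ratio over 22452 probes above background on both arrays was 2.17. Over the 24 contigs above background on both it was 1.12, and 16 of the 24 (66.7%) had a ratio under 1.5, beside 11.4% of all such probes. Net signal of genolin_c49216, for example, was 1940 units on the first array and 1926 on the second. That of genolin_c184 was 12216 and 13181 units, and that of genolin_c59604 was 4583 and 3969 units.

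Other contigs did follow the array. Net signal of genolin_c49208 went from 193 to 441 units, that of genolin_c56632 from 272 to 745 units and that of genolin_c53216 from 5580 to 11814 units. After quantile normalization the second array minus the first was therefore -0.56 log2 as a median over the 28 contigs and 0.01 log2 over all tested probes. For the 13 contigs low in lbf1 plant 5 it was between -1.07 and -0.45 log2. Contigs outside the 13 had like values, -0.82 log2 for genolin_c2774, -0.8 for genolin_c1440, -0.79 for genolin_c46180, -0.72 for genolin_c33670 and -0.47 for genolin_c8752. The repeat arrays of lbf1 plant 1, which were of similar brightness (777 and 851 units), differed by a median absolute 0.0815 log2 over the contigs, and by over 0.5 log2 in none.

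**Figure D5:**
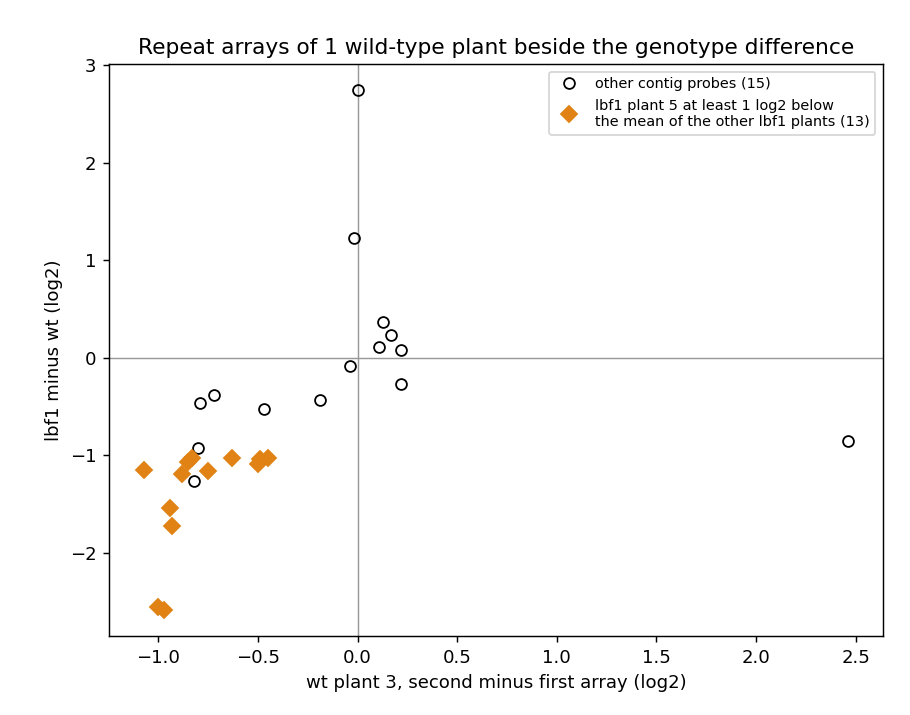
The horizontal axis is the level on the second minus the first array of wild-type plant 3 (log2), and the vertical axis is lbf1 minus wt (log2), for the 28 tested contigs. Orange diamonds are the 13 contigs in which lbf1 plant 5 lay at least 1 log2 below the other mutants; all 13 lie below 0 on both axes, and genolin_c29100 stands alone at the right with 2.46 log2.

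Brightness moved with genotype, from 8.72 to 9.07 log2 in wild-type plants and from 9.34 to 9.85 log2 in lbf1 plants. With it as a term in the limma fit 0 of 28 contigs were called (1 at an unadjusted p under 0.05), and 0.354% of all tested probes were. The median contig difference was then -0.03 log2, while genolin_c49216, genolin_c8232 and genolin_c21073 kept estimates of -1.15, -1.29 and -1.51 log2 (limma adjusted p of 0.411, 0.473 and 0.359). The difference of genolin_c49208 was 1 log2 there (limma adjusted p of 0.529), and genolin_c42715 was not called (limma adjusted p of 0.138). Over plants the brightness ranges did not overlap, but array by array they did. The second array of wild-type plant 3, at 9.52 log2, was brighter than that of lbf1 plant 2, at 9.34 log2. On that wild-type array genolin_c49216 read 10.78 log2, while no lbf1 array exceeded 9.09 log2. Other contigs met the lbf1 values there. The level of genolin_c46180 was 7.54 log2, inside its range of 7.53 to 7.95 log2 over lbf1 arrays. That of genolin_c6006 was 12.57 log2, equal to lbf1 plant 2. These contigs are picked examples, and the part of brightness in the differences was not tested. With only the second array of each repeated plant 10 contigs were called, 8 lower and 2 higher, beside 30.1% of all probes tested there. With only the first array 15 were called, 13 lower and 2 higher, beside 31.1%.

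Within slide 1, where lbf1 plant 1 stands against wild-type plants 1 and 2, 10 contigs were called, 8 lower and 2 higher, beside 28.1% of all tested probes, and 7 of these 10 were among the 12. The lone mutant plant was assumed there to vary as the wild-type pair did. On the other slides, where wild-type plant 3 stands alone and was assumed to vary as the mutants did, 5 contigs were called, 3 lower and 2 higher, beside 13% of all tested probes. These 5 were genolin_c49216, genolin_c8232, genolin_c21073, genolin_c49208 and genolin_c42715. Each fit has a genotype with a single plant, so neither shows how far that genotype varies.

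The authors' deposited values hold the contigs on another scale, log2 of the spot median minus background with each array centred on a common median. Each wild-type array has a value for 24 to 26 of the contigs, and each lbf1 array for 25 to 28. Of the 25 contigs that could be tested in them, 17 were called, 15 lower and 2 higher in lbf1, beside 42.1% of all probes tested in that table. The median contig difference was -1.13 log2, and that of all probes 0.17 log2. For genolin_c42715 the table holds values on all 7 lbf1 arrays and on no wild-type array.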

How the data were processed

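RNA of 9 plants was hybridised to 11 single-colour arrays. Per the file headers, spot intensity was read with GenePix Pro 6.0.1.22 at a photomultiplier gain of 450 on every array, with no normalization. The deposited scans also record, for each spot, the percent of pixels that were saturated and a flag. The authors' deposited value table is on the log2 scale; at least 99.99% of its values per array equal, within 0.001, log2 of spot median minus background plus 1 constant, and each column has a median of 9.02.

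Background was corrected with normexp (offset 50) on spot mean and local background median, bad spots were dropped, controls were removed and arrays were quantile normalized. limma 3.58.1 (R 4.3.3) compared 3 wild-type with 6 lbf1 plants over 28267 probes, with no block. The fit was tested on simulated data with independent noise for each probe. That simulation held no effects shared between probes, such as those of plant, slide or brightness, so it cannot show how the fit behaves under them. A spot was called saturated at 50% of its pixels. The spike-in setting used 4 E1A control probes with net signal between 100 and 20000 units on every array. Background subtraction used a floor of 10 units after scaling. The p-values set the genotype difference against the spread between these plants, moderated over all tested probes. They do not separate genotype from slide or brightness.

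The members and lists were chosen with earlier results of these data known. All 47 contigs are named; values in every plant, or lowest, median and highest, are given for called contigs, for those above background on all arrays of 1 genotype and none of the other, and for the 5 with the widest SD in lbf1; other choices of values were made after seeing them. Deviations of same-numbered plants had correlations of 0.0592, -0.0927 and 0.0832, where those of differently numbered plants ran from -0.17 to 0.183. The numbers were therefore not used to pair plants, though these correlations cannot exclude a shared origin. Alternatives were other scalings, backgrounds, filters, blocks and left-out plants. Probe sequences were not used here.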

Additional observations from a re-analysis of the deposited data

Results flagged for a closer look

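Among the 28 tested contigs, 5 had a lbf1 plant set far apart from the other 5, and chance alone marks about 1 in 20 such groups. In 4 of them it was plant 5, the lowest. For genolin_c184 plant 5 read 11.04 log2, with the next mutant at 12.67 log2. For genolin_c6006 plant 5 read 10.6 log2, with the nearest at 11.94 log2. For genolin_c59604 it read 9.95 log2, with the nearest at 11.09 log2. For genolin_c49216 it read 7.43 log2, with the nearest at 8.49 log2. In genolin_c49208 plant 1 was the highest, at 11.3 log2, with the nearest at 10.52 log2. The 5 contigs share their arrays, so these are not separate observations of plant 5.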

How the results depend on the processing

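The 12 calls among 28 contigs stood beside 32.2% of all tested probes. They became 21 with 75th percentile scaling, beside 34% of all tested probes. With background subtraction and that scaling together they became 19, beside 32.5%. With slide as a fixed block, where the comparison rests on lbf1 plant 1 and wild-type plants 1 and 2, they became 2, beside 17%. With brightness as a term they became 0 (1 at an unadjusted p under 0.05), beside 0.354%. Without slide 1 the median contig difference was -1.01 log2. With the replicate block on plant number 8 were called, beside 15.5% of all tested probes. The main fit did not take that number to pair plants. Leaving out single plants gave 7 to 18 calls. There were 7 without wild-type plant 3 (beside 25%), 8 without wild-type plant 1 (23.8%) and 18 without lbf1 plant 5 (28.5%). Under the other settings, the fits within and without slide 1 aside, the count was 9 to 17. The share of all probes called there was 20.3% to 65.1%. The median contig difference of -0.98 log2 was -0.33 with spike-in scaling, -0.45 with no scaling, -0.53 within slide 1 or with slide as a fixed block, and -0.03 with brightness as a term. Without single plants it ran from -1.04 to -0.72. Contigs on every wild-type array numbered 23 to 25 without single plants and those on every lbf1 array 24 to 25, the latter falling to 15 when every negative control spot had to be exceeded, with array maxima of 55 to 482 units. The cause of these changes was not tested, and the negative control, unscaled and spot median settings were chosen after seeing the data.

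Signs turned for these contigs. With brightness as a term genolin_c184 read 0.6, genolin_c26595 0.39, genolin_c3736 0.5, genolin_c37362 0.49, genolin_c51548 0.07, genolin_c54690 0.04, genolin_c59339 0.07, genolin_c6006 0.46 and genolin_c15038 0 log2. With spike-in scaling genolin_c26595 read 0.23, genolin_c27111 0.35, genolin_c33670 0.1, genolin_c46180 0.24, genolin_c54690 0.36 and genolin_c8752 0.02 log2. With no scaling genolin_c26595 read 0.12, genolin_c27111 0.23, genolin_c46180 0.13 and genolin_c54690 0.25 log2. Scaling to the 75th percentile and to the median turned genolin_c15038 to -0.39 and -0.23 log2. For genolin_c53216 it was -0.04 with the 75th percentile, -0.1 with background subtraction and that scaling together, and -0.01 with the replicate block. For genolin_c33670 it was 0.17 within slide 1 and with slide as a fixed block. For genolin_c56632 it was 0 in both of these and -0.04 without wild-type plant 3.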
